A study of Mus musculus with 4 samples.

Results

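High_Lpl_Fabp4+ is a cluster that the authors named in their deposited annotation of single-cell RNA sequencing of mouse bone marrow-derived macrophages (BMDMs), primary macrophages grown out of bone marrow. Its members were taken as every cell that carries this name, 3896 of 27366 annotated cells. The cells came from mice aged 8 to 12 weeks and were grown in M-CSF (50 ng/mL), the growth factor that drives marrow cells to become macrophages. There were 4 libraries from the 10x Genomics droplet system, 1 for each combination of genotype label (wild type, given as C57BL/6J or C57BL/6, or Trpv4-null) and treatment (untreated, or 100 ng/mL lipopolysaccharide (LPS), a bacterial cell wall component, for 24 h). The cluster held 1101 cells of the untreated wild-type library, 1086 of the LPS-treated wild-type library, 780 of the untreated library labelled Trpv4-null and 929 of the LPS-treated library labelled Trpv4-null, and 4 values given together below follow that order. The series text speaks of 3 mice of each genotype, but the annotation names no mouse, so each group is 1 sample. No test between groups could be made, and no p-value is given. Intervals are 95% intervals that cover counting error only. They are exact, except those of differences of LPS responses, which use a normal approximation.

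Lpl encodes lipoprotein lipase, a secreted enzyme that splits the triglycerides of circulating lipoproteins into fatty acids. Fabp4 and Fabp5 encode small proteins that bind those fatty acids inside the cell, and Cd36 encodes a scavenger receptor that takes up fatty acids and oxidised lipoproteins. Macrophages that take up much lipid, such as foam cells of the artery wall and macrophages of obese fat tissue, are known for raised levels of these genes together with Spp1, Gpnmb, Trem2, Cd9 and lysosomal cathepsins. LPS is sensed by the receptor TLR4, which switches on inflammatory and interferon-stimulated genes, and Trpv4 encodes a calcium channel of the cell membrane.

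The libraries held between 43731003 and 144090985 UMIs (unique molecular identifiers, each counting 1 RNA molecule). Cells of the cluster held a median of 6653, 17095.5, 9059.5 and 16080 UMIs. Treatment and depth therefore moved together and cannot be told apart in counts of cells with a UMI, so levels below are CPM, the UMIs of a gene in the summed cells per 1000000 UMIs of those cells, and shares of cells are also given after thinning each cell to 3000 UMIs. The thinning left out 72, 8, 23 and 8 cells. Of all cell barcodes, 74 occurred in more than 1 library, 2 of them within the cluster. The cells carried macrophage genes. Of 15 macrophage markers, 14 were at 20 CPM or more in all 4 libraries; the exception was Cx3cr1, at 4.1 to 10.4 CPM. Csf1r, the M-CSF receptor, was at 1098, 589, 1192 and 577 CPM, and Adgre1, which encodes F4/80, was at 925, 1842, 990 and 1716 CPM. Adipocytes also express Lpl and Fabp4. Of 10 other adipocyte markers 2 were in the table, and they summed to 16.1 to 22.1 CPM in the cluster, nearly all of it Lipe, and to 18.9 to 24.1 CPM in other cells.

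Trpv4 itself did not follow the genotype label. In the cluster it was counted at 4.96, 1.85, 7.94 and 8.66 CPM, from 40, 36, 60 and 133 UMIs, and in all other cells at 6.03, 2.1, 8.72 and 9.78 CPM. Where these tags lie relative to the deleted part of the gene is not given in the sources used here, so the counts do not check the label. The groups are called libraries labelled Trpv4-null throughout for this reason.

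The name of the cluster was compared with its counts first. Lpl was at 1686, 1495, 1253 and 2232 CPM in the cluster against 321, 652, 207 and 1098 CPM in all other cells of the same library. The cluster was thus higher in every library, by 5.25-fold (5.12 to 5.38), 2.29-fold (2.26 to 2.32), 6.05-fold (5.88 to 6.24) and 2.03-fold (2.01 to 2.06). Fabp4 was at 202, 237, 166 and 355 CPM against 28.6, 45.9, 20 and 69.1 CPM. Its ratios were 7.06 (6.52 to 7.64), 5.16 (4.96 to 5.36), 8.29 (7.58 to 9.07) and 5.14 (4.95 to 5.32). Both genes gave the cluster its name, so these ratios describe the label and support nothing else. In mouse build GRCm38 Lpl lies at chr8:68880491-68907448 on the plus strand, Fabp4 at chr3:10204088-10208576 on the minus strand and Fabp5, its neighbour, at chr3:10012548-10016607 on the plus strand.

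Lpl was not confined to the cluster. Among the 8 clusters with at least 100 cells, the cluster ranked first for Lpl in 3 libraries, while in the LPS-treated library labelled Trpv4-null the Cd74+ cluster was higher, at 2600 CPM. Lpl in the Cd74+ cluster was 1030, 1378, 508 and 2600 CPM, and in the largest cluster, named Macrophage, it was 183, 382, 104 and 709 CPM. The lowest levels, 168, 353, 93.1 and 634 CPM, were in the High_Apoe cluster. For Fabp4 the cluster ranked first of the 8 in all 4 libraries. The next cluster was Ifit1bl1+_Cmpk2+ in the untreated wild-type library (65.2 CPM) and High_Apoe in the LPS-treated wild-type library (97.3 CPM). A small cluster left out of this ranking, High_Btg1, had Fabp4 at 33, 285, 870 and 400 CPM, higher than High_Lpl_Fabp4+ in 3 libraries. It held 67 cells in all, 5, 36, 3 and 23 by library, so the 870 CPM rests on 3 cells.

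**Figure D1:**
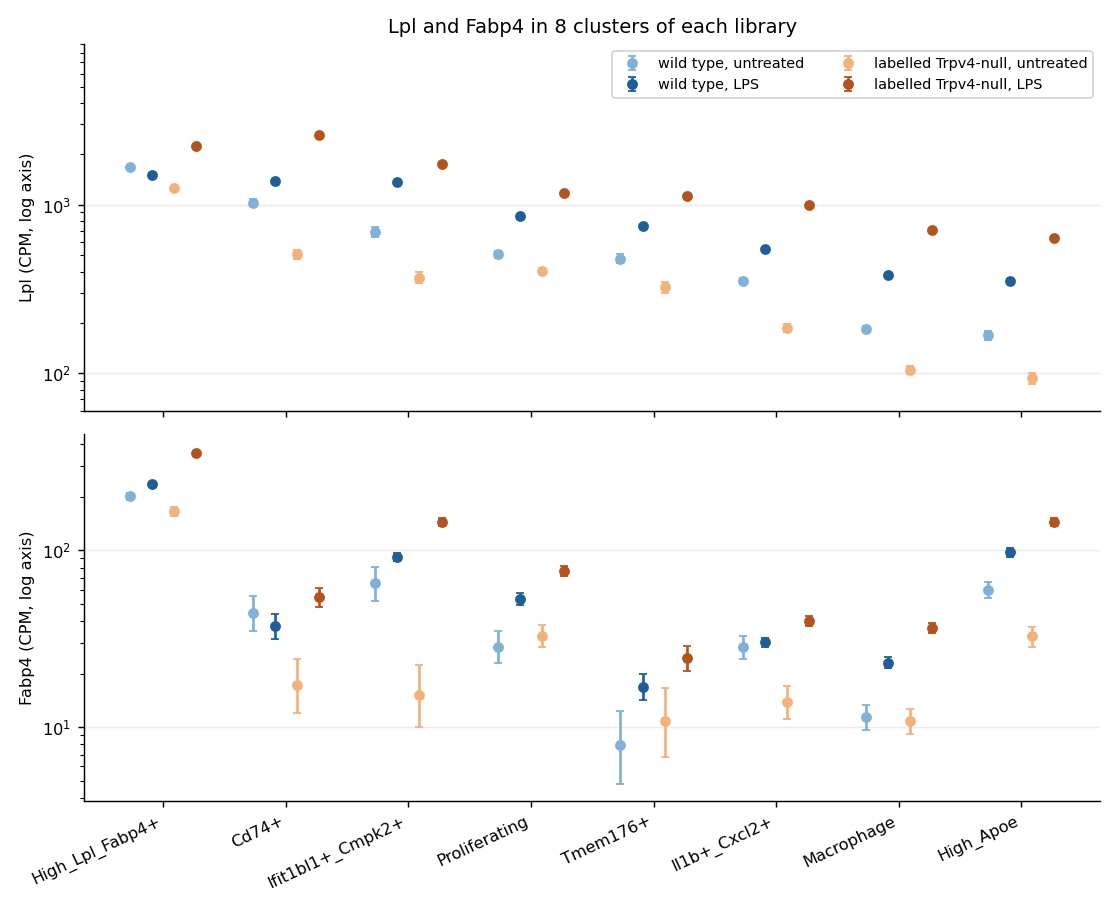
Lpl (upper panel) and Fabp4 (lower panel) in CPM on log axes, in the 8 clusters with at least 100 cells; each point is the summed cells of 1 cluster in 1 library and bars are exact 95% Poisson intervals. High_Lpl_Fabp4+ is highest for Fabp4 in all 4 libraries, at 166 to 355 CPM, and for Lpl in 3, the exception being the LPS-treated library labelled Trpv4-null, where Cd74+ reached 2600 CPM.

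Many cells of the cluster showed only 1 of its naming genes. With each cell thinned to 3000 UMIs, Lpl was detected in 75%, 80.3%, 64.5% and 86.9% of cells and Fabp4 in 25%, 31.6%, 24.6% and 38.9%. Without thinning the shares were 82.7%, 96.2%, 78.6% and 98.4% for Lpl and 36.9%, 53.7%, 37.4% and 63.3% for Fabp4. Fabp4 was thus undetected in most thinned cells of a cluster named for it, at a median of 0 UMIs in every library. Both genes were found together in 19%, 24.2%, 15.5% and 32.6% of thinned cells. The product of the separate shares was 18.7%, 25.4%, 15.8% and 33.8%, close to the shares with both. Both genes named the cluster, so this closeness does not show whether they are linked. Among thinned other cells both were found in 2.55%, 4.98%, 1.42% and 9.3%, above products of 1.58%, 4.66%, 0.89% and 8.77%. Neither gene was found in 19%, 12.2%, 26.4% and 6.84% of thinned cells. In all other cells, thinned in the same way, Lpl was detected in 30.5%, 60.6%, 23.5% and 75.5% and Fabp4 in 5.18%, 7.7%, 3.78% and 11.6%. No cluster is named as a type that should lack Lpl or Fabp4, and the share due to free RNA was not measured. A few other cells were rich in the neutrophil gene S100a9, with 99.5% and 99.7% of its UMIs in 10 cells of each untreated library. They were not examined for Lpl or Fabp4. In the Macrophage cluster the thinned shares were 26.8%, 54%, 20.4% and 69.8% for Lpl and 3.39%, 5.1%, 2.91% and 8.55% for Fabp4. The upper tail was long. The median thinned cell held 3, 3, 2 and 4 Lpl UMIs, while 10% of the cells held at least 12, 12, 10 and 17.

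The genes that marked the cluster were compared next, by the ratio of its CPM to that of all other cells of the same library. Genes were compared where the higher sum had at least 20 CPM and 30 UMIs, and ratios are log2 of CPM plus 1. At least a 2-fold ratio was reached by 112 of 6196 genes in the untreated wild-type library (1.81%; 39 higher, 73 lower) and 128 of 6192 in the untreated library labelled Trpv4-null (2.07%; 27 higher, 101 lower). After LPS it was reached by 23 of 5268 genes in the wild-type library (0.437%; 8 higher, 15 lower) and 30 of 5128 in the library labelled Trpv4-null (0.585%; 10 higher, 20 lower). The balance turned with the reference: against the Macrophage cluster alone 58 genes were higher and 21 lower, 32 and 3, 36 and 15, and 37 and 3 in the 4 libraries. The authors' clustering used the genes of these cells, so the ratios are a description without a test. The 14 genes with the highest ratios, ranked by their lowest value over the 4 libraries, are described here by role. The last of them were Cd36, with a lowest log2 ratio of 0.63, and Hip1, with 0.62, and the next outside were Ctsl with 0.61 and Lgals3 with 0.60.

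Fabp4 ranked first of the 14, Il7r and Mmp12 followed, and Fabp5 ranked 4, Lpl 6, Lrp12 11 and Cd36 13. Lpl and Fabp4 named the cluster, and Fabp5 and Cd36 are further genes of lipid handling. Fabp5 was at 2108, 4138, 2364 and 4332 CPM in the cluster against 861, 1664, 925 and 1897 CPM in other cells. The Fabp5 ratio varied little between libraries, at 2.45, 2.49, 2.55 and 2.28, while the Lpl ratio was between 5.25 and 6.05 in untreated cells and between 2.03 and 2.29 after LPS. Cd36 was at 617, 313, 525 and 385 CPM against 206, 188, 147 and 249 CPM, ratios of 2.99 (2.89 to 3.1), 1.67 (1.62 to 1.71), 3.57 (3.43 to 3.72) and 1.55 (1.5 to 1.59). Cd36 thus stood further apart in the untreated libraries, as Lpl did. Both Fabp5 and Cd36 were highest in this cluster of the 8 in all 4 libraries. The margin of Fabp5 over the High_Apoe cluster alone was small, with log2 ratios of 0.43, 0.44, 0.59 and 0.28. Lrp12, which encodes a membrane protein of the LDL receptor family, was at 49.2, 53, 44.1 and 53.5 CPM against 31, 32.3, 23.7 and 31.3 CPM.

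Secreted and surface proteins formed a further group. Spp1 encodes osteopontin, a secreted matrix and signalling protein, and was at 1164, 715, 1207 and 1003 CPM in the cluster against 559, 331, 528 and 468 CPM in other cells. Its ratios lay between 2.08 and 2.29, and the cluster ranked first of the 8 in all 4 libraries. Npy, which encodes neuropeptide Y, was at 152, 366, 139 and 512 CPM against 41.9, 196, 44 and 280 CPM. Il7r, the interleukin-7 receptor alpha chain, was at 251, 27.6, 243 and 56.7 CPM against 98.5, 10, 89.9 and 18.3 CPM. Its level after LPS was 0.11 of the untreated level in wild-type cells and 0.233 of it in cells labelled Trpv4-null. The Il7r ratio to other cells lay between 2.55 and 3.1 in all 4 libraries. Over the Cd74+ cluster alone its log2 ratios were smaller, at 0.22, 0.01, 0.53 and 0.36. High_Lpl_Fabp4+ ranked first of the 8 clusters for Il7r in 3 libraries. Adam8, a membrane-bound metalloprotease, was at 449, 308, 362 and 375 CPM against 180, 188, 153 and 238 CPM. The remaining leading genes were Myo1e and Hip1, which serve in membrane traffic and the actin cortex, the creatine transporter Slc6a8 and the vesicle protein Syngr1. Their log2 ratios over other cells lay between 0.62 and 2.14. The cluster ranked first of the 8 for Myo1e in 2 libraries and for Hip1 in 3.

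Mmp12, macrophage elastase, a secreted protease that cuts elastin, had the highest ratios of the 14 in both untreated libraries. It was at 161, 28.9, 239 and 83 CPM in the cluster against 16, 11.5, 18.3 and 24.9 CPM in other cells, ratios of 10 (9.1 to 11.1), 2.51 (2.27 to 2.77), 13.1 (12 to 14.3) and 3.34 (3.12 to 3.58). It was detected in 118, 132, 125 and 169 cells of the cluster, and the 10 cells with the most Mmp12 held 50.3%, 39.6%, 46.9% and 38.9% of its UMIs. A small number of cells thus held much of the Mmp12 of the cluster. The Cd74+ cluster had Mmp12 at 248, 159, 175 and 181 CPM, above High_Lpl_Fabp4+ in 3 libraries.

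Promoters of the leading genes were read from RefSeq (GRCm38.p6) and searched over the 250 bases before each start. An entry was found for 9 of the 14 genes. The motif GAGGAAGT, the core bound by ETS factors such as PU.1, the master regulator of macrophages, was searched on both strands. It was found before Mmp12 and Spp1, 2 of the 9, and before 352 of all 10688 genes with an entry (3.29%). These sequences are shown because they are the leading genes' promoters that hold this core. The capitals mark the motif or its reverse complement, ACTTCCTC.
Mmp12, chr9:7344147-7344396, plus strand: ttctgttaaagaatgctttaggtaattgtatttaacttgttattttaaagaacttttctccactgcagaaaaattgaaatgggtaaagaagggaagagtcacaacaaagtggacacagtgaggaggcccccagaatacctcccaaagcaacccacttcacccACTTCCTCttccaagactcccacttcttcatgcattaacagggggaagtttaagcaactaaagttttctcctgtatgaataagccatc
Spp1, chr5:104434861-104435110, plus strand: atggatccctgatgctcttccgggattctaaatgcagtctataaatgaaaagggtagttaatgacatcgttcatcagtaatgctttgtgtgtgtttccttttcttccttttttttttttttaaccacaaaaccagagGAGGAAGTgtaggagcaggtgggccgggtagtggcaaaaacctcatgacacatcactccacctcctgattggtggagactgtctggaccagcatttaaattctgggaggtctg
The other motifs searched were TTGCNNAA (C/EBP factors), found before 5 of the 9 genes (Adam8, Il7r, Mmp12, Spp1 and Syngr1) and 9.33% of all genes, AGGTCA (a nuclear receptor site), before 3 (Cd36, Mmp12 and Syngr1) and 13.2%, TGANTCA (AP-1), before Mmp12 and 5.74%, and TATAAA, before Spp1 and 8.33%. Mmp12 and Spp1 each have a further listed start, which was searched as well. A match says only that these letters are in the window.

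The leading genes were also set against single clusters, which make up the other cells they were chosen against, so the counts describe the genes and support nothing. All 14 were higher than in the Macrophage, Il1b+_Cxcl2+ and High_Apoe clusters in all 4 libraries, and 12 of 14 were higher than in the Cd74+ cluster. Some margins were small: over High_Apoe, Syngr1 had log2 ratios of 0.41, 0.29, 0.41 and 0.18. Clusters of the same library differ in depth, and the likeness of clusters was not matched for it. By the Pearson correlation of log2 CPM over the compared genes, the most similar cluster in every library was Il1b+_Cxcl2+, with r of 0.9780, 0.9898, 0.9772 and 0.9887. At least a 2-fold ratio between them was reached by 76, 16, 74 and 21 genes. By that count the Macrophage cluster (51 genes) and High_Apoe (71 genes) were nearer in the untreated library labelled Trpv4-null. Against this nearest cluster Fabp4 had log2 ratios of 2.79, 2.93, 3.49 and 3.12, Lpl 2.26, 1.45, 2.75 and 1.17, and Mmp12 5.11, 1.78, 4.51 and 2.11. The 10 genes with the lowest ratios were Top2a, Birc5, Stmn1, Cdk1, Mki67 and Smc2, which serve cell division, the antigen-presentation genes H2-Ab1 and Cd74, and Tmem176a and Tmem176b. The other cells include the Proliferating, Cd74+ and Tmem176+ clusters. Against the Macrophage cluster 3 of the 10, Top2a, Tmem176a and Tmem176b, stayed lower in all 4 libraries. Tmem176b was at 111, 36.5, 70.8 and 36.7 CPM against 207, 99.6, 164 and 101 CPM in other cells, and both Tmem176 genes were lowest of the 8 clusters in every library.

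**Figure D2:**
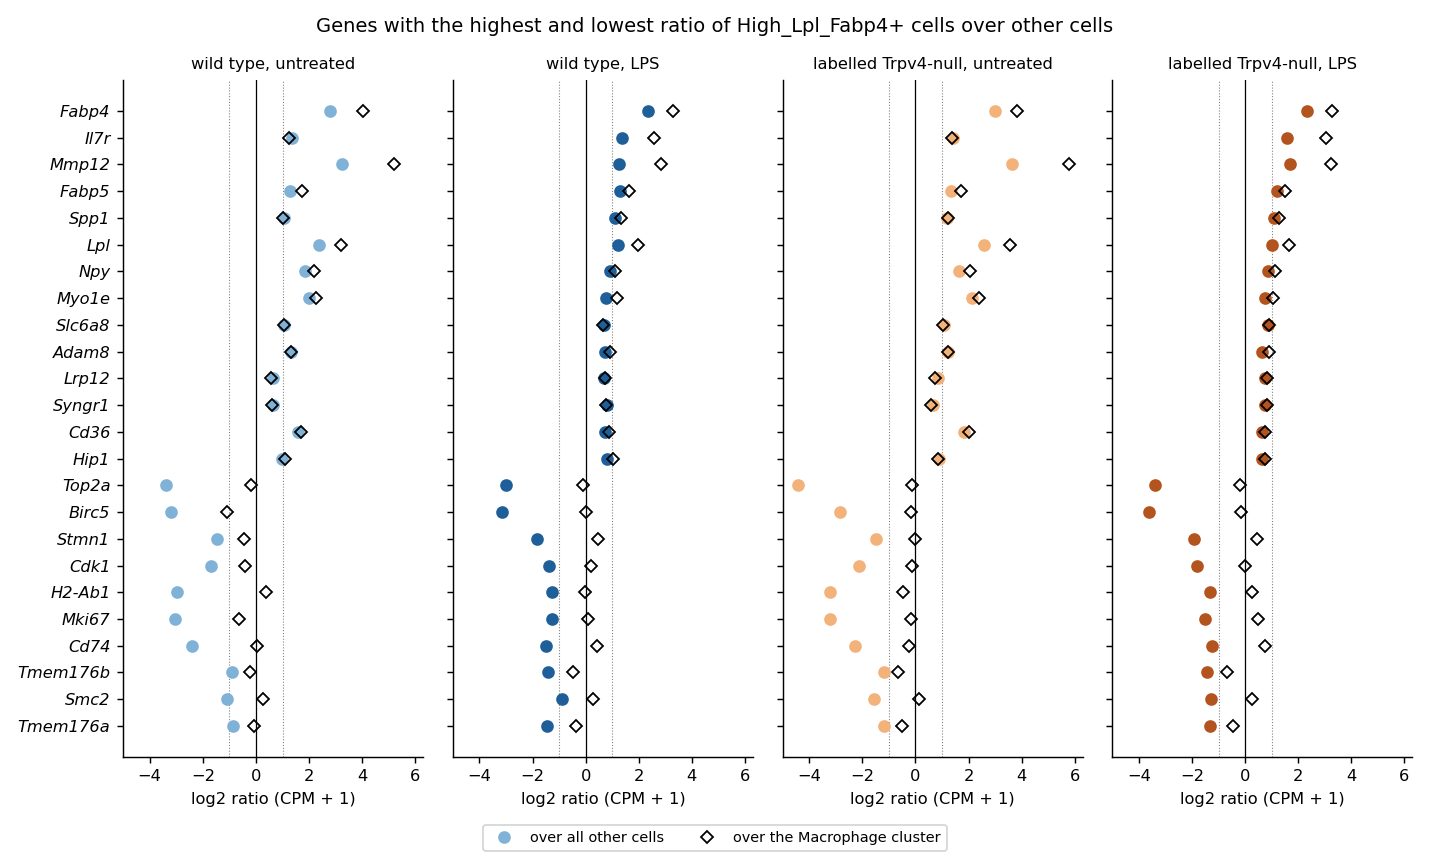
Log2 ratio of CPM plus 1 of High_Lpl_Fabp4+ cells over all other cells (filled circles) and over the Macrophage cluster (open diamonds) for the 14 highest and 10 lowest genes, 1 panel a library; dotted lines mark 2-fold. All 14 upper genes lie to the right of 0 with both references, while 7 of the 10 lower genes lie at or above 0 in at least 1 library when set against the Macrophage cluster.

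Gene lists were then read for the cluster beside the median of all compared genes, which was between -0.05 and -0.02 in log2 in the 4 libraries. A list's counts cover only members past the minimum level, and a member can pass it through the cells in which it is high. Lipid uptake and binding genes had median log2 ratios of 0.70, 0.58, 0.48 and 0.55, with 8 of 9, 8 of 8, 8 of 9 and 8 of 8 compared members higher in the cluster. Of these, 4, 3, 4 and 3 reached 2-fold higher, against 0.629%, 0.152%, 0.436% and 0.195% of all genes; Lpl, Fabp4 and Fabp5 were 3 of them in each library. The list is therefore carried by genes already named, with smaller ratios for Msr1 (0.70, 0.17, 0.48 and 0.19) and Slc27a1 (0.47, 0.43, 0.33 and 0.47), a scavenger receptor and a fatty acid transporter.

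Genes known from lipid-associated macrophages were higher together in the cluster. Of 16 list members, 14 were compared and all 14 were higher than in other cells in each library, with medians of 0.51, 0.45, 0.56 and 0.47. They were also higher than in the Macrophage cluster in each library, with medians of 0.62, 0.59, 0.55 and 0.60. Apart from Spp1 and Mmp12 most ratios were under 2-fold. Trem2, a lipid-sensing receptor, had 0.49, 0.59, 0.54 and 0.56, Gpnmb, a lysosomal membrane glycoprotein, 0.71, 0.82, 0.59 and 0.66, Lgals3, galectin-3, 0.89, 1.03, 0.60 and 0.98, and the tetraspanin Cd9 0.93, 0.55, 0.80 and 0.53. The 2 members below the minimum level were Ctsk and Itgax, at 8.68 and 10.5 CPM in the cluster of the untreated wild-type library against 2.64 and 2.5 CPM in other cells. Lysosomal genes as a whole had smaller medians, 0.20, 0.15, 0.23 and 0.18, with 17 of 23, 22 of 22, 19 of 24 and 22 of 22 members higher. The cathepsin Ctsl, a lysosomal protease, had the largest ratio there, 0.86, 0.86, 0.61 and 0.80. Against the Macrophage cluster fewer lysosomal genes were higher, 14 of 23, 15 of 22, 15 of 24 and 18 of 22. Their medians were then 0.17, 0.06, 0.17 and 0.12.

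Lipid storage and lipid burning genes did not stand apart as lists. Storage and lipolysis genes had medians of 0.12, 0.08, 0.19 and 0.07, and none of them reached 2-fold. Plin2, the coat protein of lipid droplets, was at 1172, 383, 899 and 515 CPM against 603, 275, 556 and 357 CPM in other cells, and Lipa, the lysosomal acid lipase, at 1050, 248, 804 and 314 CPM against 686, 168, 503 and 210 CPM. Fatty acid oxidation genes had medians of 0.04, -0.03, 0.03 and -0.07, and sterol and fatty acid synthesis genes 0.08, -0.04, 0.10 and -0.10. Cholesterol efflux and LXR genes had medians of -0.06, 0.04, 0.07 and 0.03, with members on both sides. Nr1h3, which encodes the receptor LXR alpha, was at 24.1, 116, 16.4 and 118 CPM against 10.1, 101, 6.36 and 102 CPM. Apoe, a lipid carrier that LXR induces, was lower in the cluster, at 2458, 364, 3360 and 586 CPM against 4763, 602, 5428 and 817 CPM, in a comparison that includes the High_Apoe cluster. Pparg, a nuclear receptor that induces Fabp4 and Cd36 in macrophages, was at 56.8, 2.98, 33.3 and 4.43 CPM against 26.2, 1.99, 14 and 2.47 CPM, while its list had medians of -0.10, -0.04, -0.05 and -0.08.

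Inflammatory lists depended on the reference. Interferon-stimulated genes were lower in untreated cells of the cluster, with medians of -0.85 and -0.87, 0 of 21 and 0 of 22 members higher and 10 of each at 2-fold lower, against 1.18% and 1.63% of all genes. The other cells include the interferon-high cluster Ifit1bl1+_Cmpk2+, and against the Macrophage cluster the medians were -0.24 and -0.12. After LPS the medians were -0.11 and -0.07. Chemokine genes had medians of -0.02 (0.12 with the TMM scaling described below), 0.19, 0.28 and 0.05 against all other cells but 0.78, 1.05, 0.50 and 0.84 against the Macrophage cluster. Over other cells 4 of 8, 10 of 14, 5 of 7 and 7 of 13 chemokines were higher, none of them at 2-fold. In each untreated library 2 were at 2-fold lower, against 1.18% and 1.63% of all genes. Cxcl10 was lower in the cluster in every library. Ccl6 and Ccl9, chemokines that recruit myeloid cells, were among the higher members. They had log2 ratios over other cells of 0.49, 0.94, 0.40 and 0.83 and of 0.71, 0.58, 0.28 and 0.52. Glycolysis and hypoxia genes were lower in the cluster after LPS, with 1 of 17 and 0 of 17 members higher and medians of -0.26 and -0.22, but not in untreated cells, with 11 of 15 and 7 of 15 higher and medians of 0.13 and 0.00. None of these glycolysis genes reached 2-fold.

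**Figure D3:**
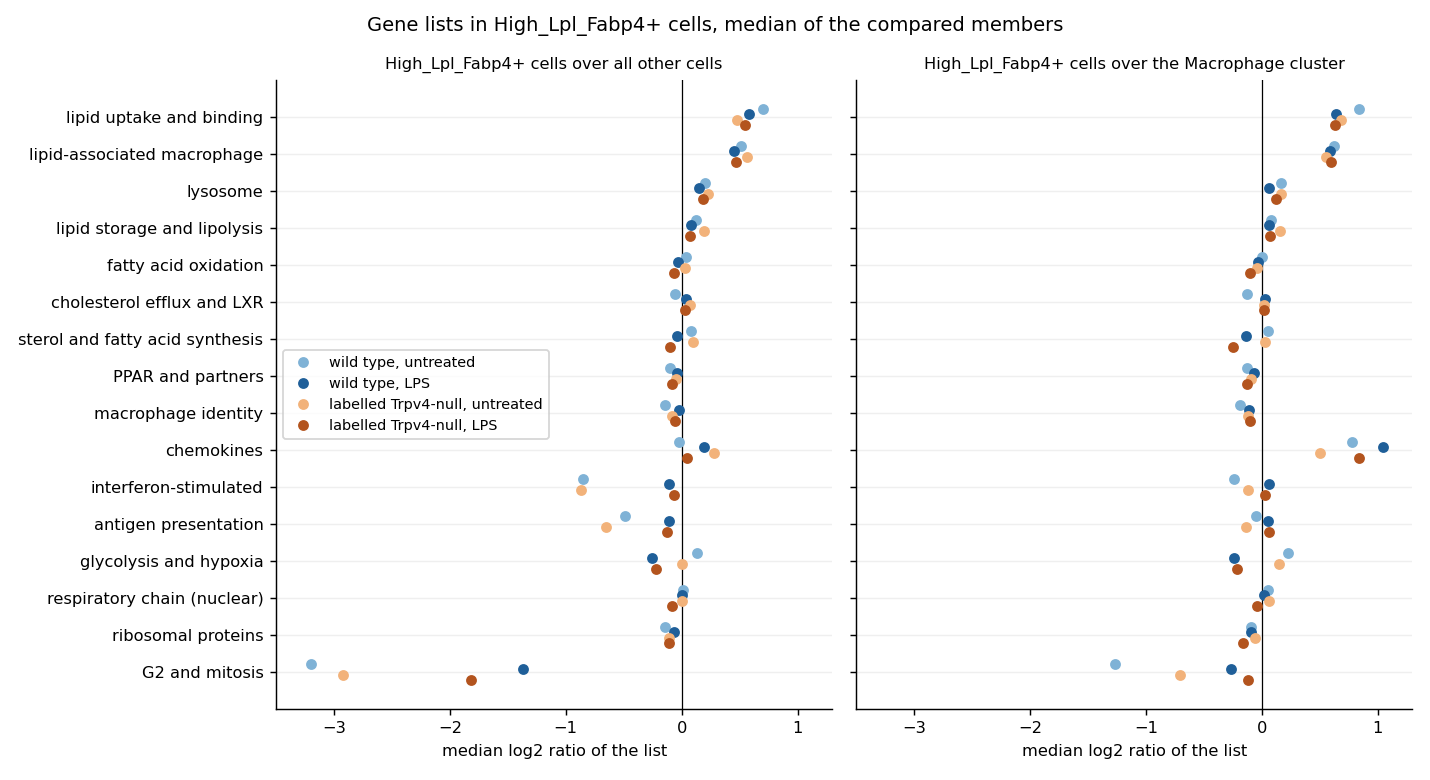
Median log2 ratio of the compared members of 16 gene lists in High_Lpl_Fabp4+ cells over all other cells (left) and over the Macrophage cluster (right); each point is 1 library. Lipid uptake and lipid-associated macrophage genes lie at 0.45 to 0.84 with either reference, while the chemokine list moves from between -0.02 and 0.28 to between 0.50 and 1.05 when the reference is the Macrophage cluster.

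Within the cluster, LPS-treated cells were compared with untreated cells of the same genotype label. At least a 2-fold ratio was reached by 1332 of 6204 genes in wild-type cells (21.5%; 411 or 6.62% higher, 921 or 14.8% lower) and by 1611 of 6160 in cells labelled Trpv4-null (26.2%; 466 or 7.56% higher, 1145 or 18.6% lower). The balance of higher and lower calls depended on the scaling. With TMM factors (trimmed mean of M values, a scaling that sets most genes to no change) the counts were 726 higher and 365 lower in wild-type cells and 867 higher and 414 lower in cells labelled Trpv4-null, and the median log2 ratio of all genes moved from -0.37 to 0.13 and from -0.39 to 0.19. Ratios below are of CPM.

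Acute-phase and inflammatory genes had the highest ratios. Saa3, an acute-phase protein, was at 2.85 CPM in untreated and 31859 CPM in LPS-treated wild-type cells of the cluster, and at 1.59 and 25900 CPM in cells labelled Trpv4-null. Ccl5, a T cell chemokine, was at 1.24 and 11667 CPM and at 4.5 and 12082 CPM. All 31 compared interferon-stimulated genes were at least 2-fold higher in both genotypes, with median log2 ratios of 4.88 and 4.14. Chemokines had medians of 5.23 and 6.21, with 12 of 14 and 12 of 13 members at 2-fold higher, and inflammatory cytokines 5.25 and 5.30, with 6 of 7 in each. Among the lowest ratios was Atp6v0d2, a proton pump subunit known from osteoclasts and macrophages, at 165 and 4.22 CPM and at 168 and 6.77 CPM. Slc40a1, the iron exporter ferroportin, was at 359 and 7.51 CPM and at 324 and 4.3 CPM. Genes of the mitochondrial genome had medians of -1.17 and -1.15, or -0.71 and -0.62 with TMM factors.

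The lipid genes that mark the cluster did not share a direction after LPS. Cells were given the cluster name after treatment, and Lpl and Fabp4 named it. Their ratios within the cluster therefore also depend on which cells of each library were given the name. Lpl was 1686 and 1495 CPM in wild-type cells, a ratio of 0.887 (0.869 to 0.905), and 1253 and 2232 CPM in cells labelled Trpv4-null, a ratio of 1.78 (1.74 to 1.82). With TMM factors the wild-type log2 ratio of Lpl was 0.29 in place of -0.17, so its direction depended on the scaling. Fabp4 had ratios of 1.17 (1.11 to 1.24) and 2.14 (2.01 to 2.28), and Fabp5 ratios of 1.96 (1.93 to 2) and 1.83 (1.8 to 1.86). Both Fabp genes were thus higher after LPS in both genotypes. Cd36 had ratios of 0.507 (0.488 to 0.527) and 0.732 (0.703 to 0.763); with TMM factors its log2 ratio was -0.51 in wild-type cells but 0.08 in cells labelled Trpv4-null. Plin2 was lower in both genotypes under either scaling, with 0.327 (0.317 to 0.337) and 0.573 (0.554 to 0.592). Lipa had ratios of 0.236 (0.227 to 0.244) and 0.39 (0.375 to 0.405). Msr1, the class A scavenger receptor, went from 86.7 to 647 CPM and from 66.8 to 728 CPM, and Acsl1, which activates fatty acids by joining them to coenzyme A, from 36.3 to 508 CPM and from 30.7 to 530 CPM. Nr1h3 was 4.83-fold (4.17 to 5.63) and 7.2-fold (6 to 8.71) higher, while Pparg was at 0.0525 (0.0393 to 0.0691) and 0.133 (0.1 to 0.174) of its untreated level. The lipid-associated macrophage list had medians of -0.71 and -0.51, which TMM factors moved to -0.24 and 0.02. Fatty acid oxidation genes had medians of -0.50 and -0.63 (-0.22 and -0.12 with TMM factors) and storage genes of -0.73 and -0.70 (-0.28 and -0.13).

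**Figure D4:**
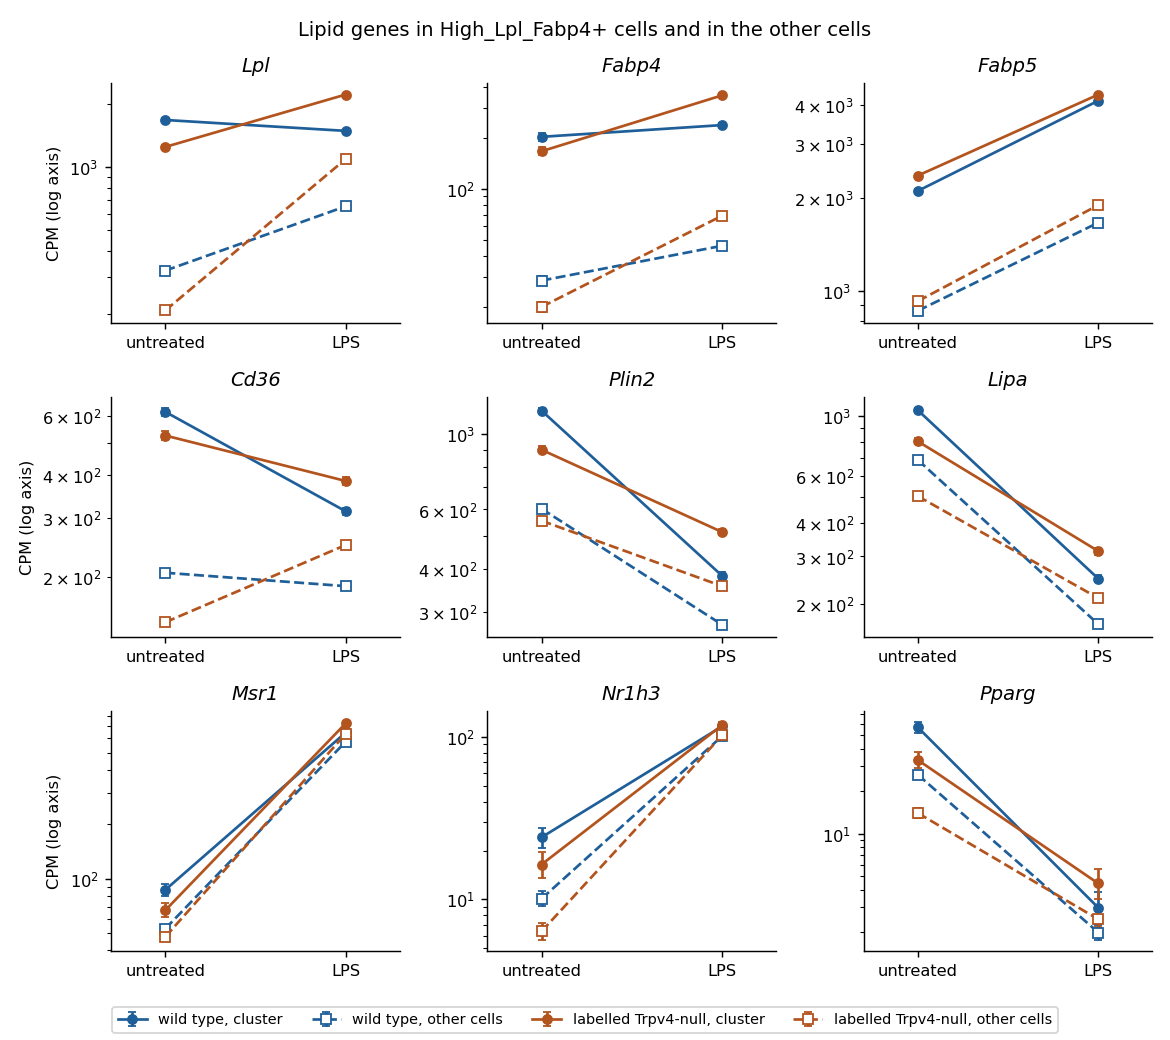
CPM on log axes of 9 lipid genes in untreated and LPS-treated cells, with filled circles for High_Lpl_Fabp4+ cells, open squares for all other cells of the same library, and bars for exact 95% Poisson intervals; lines join the libraries of 1 genotype label. Lpl differs little between the wild-type libraries in the cluster (1686 and 1495 CPM) and more in other cells (321 and 652 CPM), while Fabp5 is higher after LPS in both.

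The cluster and the other cells differed in how far these genes moved. The difference of the log2 LPS ratios, cluster minus other cells, reached 1 in size for 74 of 6477 genes in wild-type libraries (1.14%; 58 or 0.895% above, 16 or 0.247% below) and 78 of 6497 in libraries labelled Trpv4-null (1.2%; 61 or 0.939% above, 17 or 0.262% below). For Lpl it was -1.19 (-1.23 to -1.15) and -1.57 (-1.61 to -1.52): other cells went from 321 to 652 CPM and from 207 to 1098 CPM, so the gap between them and the cluster was smaller after LPS. Lpl named the cluster, so its difference also depends on which cells were given the name. Cd36 followed with -0.84 (-0.91 to -0.78) and -1.20 (-1.27 to -1.13) and Nr1h3 with -0.97 (-1.23 to -0.71) and -1.04 (-1.36 to -0.72). Mmp12 had -1.99 (-2.19 to -1.79) and -1.94 (-2.10 to -1.78). Fabp5 and Spp1 had differences close to 0, of 0.02 (-0.01 to 0.05) and -0.16 (-0.19 to -0.13) and of 0.05 (0.01 to 0.10) and -0.09 (-0.14 to -0.05). Nptx1, a secreted pentraxin of neurons, had the lowest values, -2.75 (-4.31 to -1.19) and -3.26 (-6.27 to -0.25), which rest on few UMIs after LPS. It was counted at 281, 6, 400 and 1 UMIs in the cluster, in 96 and 98 cells of the untreated libraries, and at 119, 8, 187 and 8 UMIs in all other cells.

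At the upper end stood genes that untreated cells of the cluster barely held. All 31 compared interferon-stimulated genes had a positive difference in both genotypes, with medians of 0.93 and 0.88, where all genes had 0.04 and 0.03. Against the Macrophage cluster the medians were 0.36 and 0.25. Cxcl10, an interferon-induced chemokine, was at 0.496 and 1.06 CPM (4 and 8 UMIs) in the untreated cluster against 33.3 and 33.4 CPM in other cells, 91.2% and 88.2% of whose Cxcl10 UMIs were in the Ifit1bl1+_Cmpk2+ cluster. After LPS it was at 778 and 1338 CPM against 1393 and 2309 CPM, so the difference of 3.68 and 3.28 came with a lower level in the cluster at both times. Against the Macrophage cluster the Cxcl10 difference was 0.97 in wild-type libraries and -0.02 in libraries labelled Trpv4-null. S100a8, a neutrophil gene, had differences of 2.98 and 3.61, and 97.4% and 97.9% of its UMIs in untreated other cells were in 10 cells. Glycolysis and hypoxia genes had negative differences, in 18 of 19 and 19 of 19 members, with medians of -0.38 and -0.31.

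Cells labelled Trpv4-null were compared with wild-type cells within the cluster and treatment. Few genes reached 2-fold, 23 of 6045 in untreated cells (0.38%; 7 or 0.116% higher, 16 or 0.265% lower) and 13 of 5193 after LPS (0.25%; 11 or 0.212% higher, 2 or 0.0385% lower). With 1 library a group, these ratios compare libraries, and a difference of genotype and a difference between libraries cannot be told apart. Of the compared matrix protease and inhibitor genes, 5 of 7 were higher in untreated cells labelled Trpv4-null, with Mmp8 and Mmp13 at 2-fold and a median log2 ratio of 0.42. After LPS 7 of 8 were higher, with Mmp12, Mmp13 and Serpinb2 at 2-fold and a median of 0.70. Mmp13, a collagenase, was at 7.19 and 21.3 CPM in untreated and at 17.8 and 65.3 CPM in LPS-treated cells, ratios of 2.96 (2.18 to 4.07) and 3.67 (3.25 to 4.16). In other cells of the same libraries it was at 7.07 and 19.5 CPM and at 15.7 and 44.8 CPM. Mmp8, a neutrophil collagenase, was at 4.22 and 29.4 CPM in untreated cells, a ratio of 6.97 (4.84 to 10.3), and at 10.3 and 46.1 CPM in other cells. The other 6 neutrophil markers in the table summed to 3.59, 12.5, 5.69 and 11.6 CPM in the cluster and to 216, 53.9, 347 and 28.2 CPM in other cells, and their part in the Mmp8 ratio was not tested. Ngp was at 0 in both untreated libraries of the cluster. Mmp12 was 1.48-fold (1.38 to 1.6) and 2.88-fold (2.6 to 3.18) higher.

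Immediate early genes were lower in the untreated library labelled Trpv4-null. Of 16 compared, 15 were lower and 4 at 2-fold, against 0.265% of all genes, with a median log2 ratio of -0.56, while after LPS 9 of 12 were higher with a median of 0.21. Fos, a subunit of AP-1, was at 390 and 142 CPM in untreated and 89.3 and 125 CPM in LPS-treated cells, and Dusp1, a phosphatase of MAP kinases, at 328 and 101 CPM and at 128 and 156 CPM. In other cells of the untreated libraries Fos was at 484 and 193 CPM and Dusp1 at 326 and 113 CPM. Cxcl2, a neutrophil chemokine, was at 45.3 and 11.4 CPM in untreated and at 208 and 298 CPM in LPS-treated cells of the cluster. After LPS, Il1b, which encodes interleukin-1 beta, was at 346 and 149 CPM in the cluster, 0.43-fold (0.41 to 0.451), and at 608 and 282 CPM in other cells.

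The lipid genes of the cluster differed by less than 2-fold with the genotype label. For Lpl and Fabp4, which named the cluster, these ratios also depend on which cells were given the name. Lpl had ratios of 0.743 (0.724 to 0.763) in untreated and 1.49 (1.47 to 1.52) in LPS-treated cells, and Fabp4 of 0.821 (0.762 to 0.885) and 1.5 (1.44 to 1.56). Both were thus lower in the untreated and higher in the LPS-treated library labelled Trpv4-null, as were Cd36 with 0.851 (0.816 to 0.887) and 1.23 (1.19 to 1.27) and Plin2 with 0.767 (0.743 to 0.791) and 1.34 (1.3 to 1.39). Other cells had Lpl at 321 and 207 CPM when untreated, and after LPS at 652 and 1098 CPM. Their Fabp4, Cd36 and Plin2 were likewise lower in the untreated and higher in the LPS-treated library labelled Trpv4-null. The pattern was therefore not particular to the cluster. Within the cluster Fabp5 had ratios of 1.12 (1.1 to 1.15) and 1.05 (1.04 to 1.06). Il7r had a ratio of 0.968 (0.908 to 1.03) in untreated cells and of 2.05 (1.84 to 2.29) in LPS-treated cells. Among LPS-treated cells, all 14 compared lipid-associated macrophage genes were higher with the Trpv4-null label than in wild type. Their median log2 ratio was 0.28 where all genes had -0.05, against 8 of 14 higher and a median of 0.05 in untreated cells. Interferon-stimulated genes were higher in 13 of 13 untreated and 30 of 31 LPS-treated comparisons, with medians of 0.33 and 0.22, and 1 of them, Gbp2, a guanylate-binding protein, reached 2-fold, at 11.7 and 25.5 CPM untreated. Of the glycolysis and hypoxia genes, 17 of 17 were lower with the Trpv4-null label among LPS-treated cells, with a median of -0.29. In untreated cells 8 of 15 were higher with that label, with a median of 0.02. The lists were compared by genotype label only within the cluster.

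**Figure D5:**
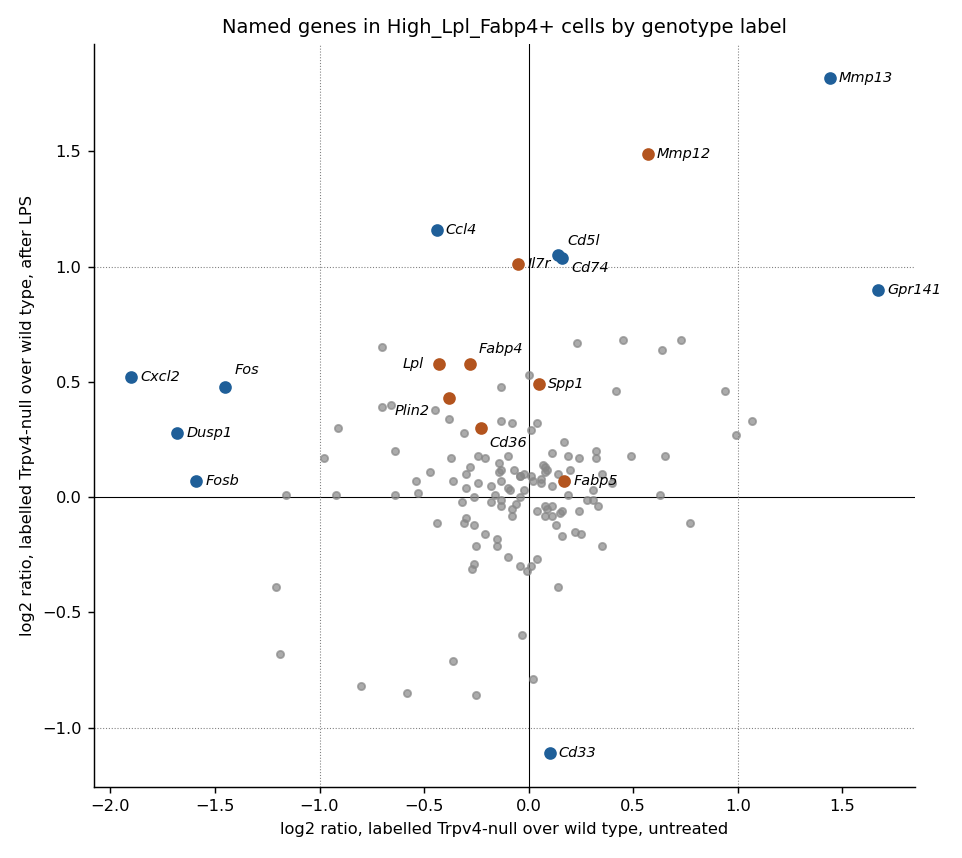
Log2 ratio of CPM plus 1 in High_Lpl_Fabp4+ cells of libraries labelled Trpv4-null over wild type, untreated on the horizontal and after LPS on the vertical axis, for the 145 named genes compared in both; orange points are genes of lipid handling or leading genes, blue points other labelled genes, grey points the rest, and dotted lines mark 2-fold. Lpl and Fabp4 lie left of 0 and above it (-0.43 and 0.58, -0.28 and 0.58), Mmp13 is above 1 on both axes (1.44 and 1.82), and Dusp1 and Fos are below -1 in untreated cells only.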

How the data were processed

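Single-cell RNA was read with the 10x Genomics Chromium system, and the submitters' processing notes name Cell Ranger 3.1.0, Seurat 4, R 4.2 and build mm10. The deposited table holds raw UMI counts of 14432 genes in 27366 cells, and the authors' annotation gives each cell's library, cluster name, UMI count and mitochondrial fraction (per the file headers). The annotated cells held 1003 to 39987 UMIs and at most 9.998% mitochondrial UMIs. How the authors filtered cells, treated doublets and used strand is not given in the sources used here. No doublet caller was run. Reads of overlapping genes and near-identical copies may therefore be split in ways not known here.

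Counts were summed over the cells of a cluster in each library and given as CPM (pandas 2.3.3 and scipy 1.17.1 in Python 3.11.15). Genes entered a comparison at 20 CPM and 30 UMIs in the higher sum, ratios are log2 of CPM plus 1, and a gene counts as called past 2-fold. For differences of LPS responses the threshold is 1 in log2. Intervals are exact Poisson or binomial at 95%, except for differences of LPS responses. Those use a normal approximation on the log2 scale, which is poor where a sum holds few UMIs. A count of 0 allows up to 3 UMIs. There was 1 library a group, so no count model was fitted; edgeR 4.0.16 in R 4.3.3 gave only the TMM factors of an alternative scaling. The calculations were tested on simulated data.

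Named genes were Lpl, Fabp4 and Trpv4; the 14 highest and 10 lowest genes of the cluster; the 8 highest and 8 lowest of each comparison between libraries; the 6 highest and 6 lowest of each difference of LPS responses; up to 4 members of each of 26 gene lists; and every lipid-list member at 20 CPM. Ctsk, Itgax and other list members outside this rule were named after their values were seen. The cluster and the lists were chosen with earlier results of these data known. There were 9 alternatives. Positions are from GENCODE on GRCm38 and promoters from RefSeq on GRCm38.p6. The result for 1 gene is not reported here.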

Additional observations from a re-analysis of the deposited data

Results flagged for a closer look

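Several named genes had LPS ratios of opposite sign in groups compared side by side. With 1 library a group none of these differences was tested.

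Within the cluster, the log2 ratio of LPS-treated over untreated cells was -1.35 in wild-type cells and 0.62 in cells labelled Trpv4-null for Dusp1, a MAP kinase phosphatase. For Cd33, a sialic acid receptor, it was 0.32 and -0.89. For Cd74, the invariant chain of antigen presentation, it was -0.46 and 0.42, and the wild-type value was 0.00 with TMM or median-of-ratios scaling.

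In wild-type libraries the LPS ratio differed in sign between the cluster and the other cells for Adam8 (-0.54 and 0.07), Myo1e (-1.08 and 0.14) and the neutrophil gene S100a8 (1.60 and -1.39). In libraries labelled Trpv4-null it did so for Cd74 (0.42 and -0.61), H2-Aa (1.14 and -0.76), Mmp12 (-1.52 and 0.43) and S100a8 (0.94 and -2.67). With TMM factors Adam8 in the cluster was -0.08 in wild type, and in libraries labelled Trpv4-null Cd74 in other cells was -0.02 and H2-Aa -0.18. In untreated other cells 97.4% and 97.9% of S100a8 UMIs lay in 10 cells.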

How the results depend on the processing

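No paired analysis was possible because each group holds 1 library and the annotation names no mouse; no replicate could be left out for the same reason. In the order of 4 comparisons of the cluster with other cells, 2 of LPS, 2 of the genotype label and 2 of response differences, the numbers of genes at 2-fold were 112, 23, 128, 30, 1332, 1611, 23, 13, 74 and 78. With no CPM minimum and 10 UMIs they were 343, 156, 355, 185, 2367, 3074, 110, 37, 184 and 159, where more low genes were compared. With the Macrophage cluster as reference the count was 35 after LPS in wild-type cells, 51 in the untreated library labelled Trpv4-null and 51 for the response difference in libraries labelled Trpv4-null. With other clusters weighted equally it was 39 after LPS in wild-type cells. The genotype comparison after LPS gave 20 genes with TMM factors, 21 with median-of-ratios factors and 8 with a pseudocount of 5 CPM, and the wild-type response difference gave 42 with that pseudocount. The cause of these moves was not tested.

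Among the 9 alternatives, named values past 2-fold changed sign only with the Macrophage cluster as reference; smaller values near 0, such as those of Lpl and Cd36 after LPS, also changed sign with scaling. In the untreated wild-type library the log2 ratios then were 0.05 for Cd74, 0.62 for H2-Aa, 0.36 for H2-Ab1, 0.12 for H2-Eb1, 1.07 for Il1b, 0.13 for Rsad2 and 0.27 for Smc2. After LPS in wild-type cells they were 0.01 for Birc5, 0.44 for Cd74, 0.20 for Cdk1, 0.09 for Mki67, 0.09 for Rrm1 and 0.48 for Stmn1. In the untreated library labelled Trpv4-null they were 0.14 for Ccr2, 0.36 for Cmpk2, 0.21 for Cxcl2, 0.44 for H2-Aa, 0.15 for Rsad2 and 0.14 for Smc2. In its LPS-treated counterpart they were 0.73 for Cd74, 0.00 for Cdk1, 0.92 for H2-Aa, 0.27 for H2-Ab1, 0.52 for H2-Eb1, 0.49 for Mki67, 0.39 for Rrm1, 0.27 for Smc2 and 0.45 for Stmn1. Response differences were -0.19 for H2-Aa and -0.40 for H2-Ab1 in wild type, and -0.11 for Acod1, 0.31 for Cenpa, -0.02 for Cxcl10, -0.07 for Top2a and 0.51 for Ube2c in libraries labelled Trpv4-null.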

Other observations

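Atp6v0d2, a proton pump subunit of osteoclasts and macrophages, was at 165, 4.22, 168 and 6.77 CPM in the cluster against 37.9, 1.08, 30.4 and 2.03 CPM in other cells. The 7 osteoclast markers in the table summed to 219, 62.6, 220 and 71.1 CPM against 94.7, 56, 84.5 and 58.7 CPM. Atp6v0d2 was most of that sum in the untreated cluster. Folr2, a folate receptor of tissue macrophages, was at 82.5, 121, 129 and 190 CPM in the cluster against 27.2, 76, 46.2 and 130 CPM. It belongs to a list of alternative activation genes that did not share this direction. Of the compared members 2 of 6, 3 of 5, 2 of 6 and 3 of 5 were higher, with median log2 ratios of -0.32, 0.07, -0.27 and 0.08. In each untreated library 2 members were at 2-fold lower, against 1.18% and 1.63% of all genes.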
